A study of Mus musculus with 7 samples.

Results

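ORR1 elements are solitary long terminal repeats (LTRs) and longer remnants of an old group of mouse retrotransposons, and their transcription was examined in fetal testes with and without functional *Glis3*. All loci of the RepeatMasker count table whose element name starts with ORR1 were taken, 184967 of the 3494995 LINE, SINE and LTR loci in the table. Of these, 166375 were LTR loci and 18592 were internal loci, whose names end in -int. The RNA came from testes of single C57BL/6 embryos at E14.5, 1 pair of testes per library. The wild-type group (WT) held 3 embryos (n = 3), and the mutant group (n = 4) was homozygous for *Glis3* zf5, an allele that lacks *Glis3* function in every cell of the embryo and not in germ cells alone. The whole testis was sequenced, so each value is a sum over germ, Sertoli, Leydig, vascular and other cells, and fewer cells of a type cannot be told apart from less RNA per cell. Ribosomal RNA was removed and no poly-A selection was made, which leaves intronic RNA in the libraries.

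ORR1 belongs to the mammalian apparent LTR retrotransposons (MaLR) of the ERVL group, together with the MT and MLT1 elements. An LTR carries the promoter, the start site and the polyadenylation signal of its element, and most copies have lost their internal part by recombination between the LTRs at the ends, so that a solitary LTR is what remains. MaLR LTRs are best known as promoters and first exons of transcripts in mouse oocytes and early embryos, and in most cells they are held silent by histone methylation and DNA methylation, to which the piRNA pathway adds in fetal male germ cells. Subfamilies are lettered A to G, from the younger to the older copies.

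The sequences below show where loci annotated as ORR1 overlap annotated transcripts in this set. Whether the bases of such a locus derive from an ORR1 element, above all in a coding exon, was not tested. The first 4 are windows from 250 bases before to 50 bases after an annotated gene start (RefSeq, GRCm38.p6), for the gene in subfamilies A, B, D and E with the most reads at the LTR, scaled to library size, among genes that start in an LTR on their own strand. The last 2 are stretches of spliced transcripts (GENCODE M21, GRCm38) with 30 bases of transcript on each side. Capitals mark the bases that lie inside the ORR1 locus, and all are written 5′ to 3′ on the strand of the gene.
Gm40422, ORR1A2, chr12:51411177-51411476, minus strand: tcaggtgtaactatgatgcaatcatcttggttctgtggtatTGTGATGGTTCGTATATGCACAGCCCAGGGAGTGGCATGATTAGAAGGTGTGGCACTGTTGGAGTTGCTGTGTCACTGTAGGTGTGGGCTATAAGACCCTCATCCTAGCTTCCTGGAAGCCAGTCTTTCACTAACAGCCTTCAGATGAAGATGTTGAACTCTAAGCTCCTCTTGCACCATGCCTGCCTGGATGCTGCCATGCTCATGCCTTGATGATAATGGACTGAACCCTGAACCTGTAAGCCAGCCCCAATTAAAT
Gm51695, ORR1B2, chr9:118887173-118887472, minus strand: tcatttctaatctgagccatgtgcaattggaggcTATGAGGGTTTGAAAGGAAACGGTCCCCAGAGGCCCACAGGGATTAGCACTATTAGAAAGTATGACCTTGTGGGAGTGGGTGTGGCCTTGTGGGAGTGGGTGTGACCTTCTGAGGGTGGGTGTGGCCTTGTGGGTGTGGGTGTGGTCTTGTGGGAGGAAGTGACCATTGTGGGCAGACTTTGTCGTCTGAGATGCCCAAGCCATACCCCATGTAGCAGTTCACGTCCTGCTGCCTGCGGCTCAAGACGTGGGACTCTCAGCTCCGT
1700121N20Rik, ORR1D2, chr12:106447617-106447916, minus strand: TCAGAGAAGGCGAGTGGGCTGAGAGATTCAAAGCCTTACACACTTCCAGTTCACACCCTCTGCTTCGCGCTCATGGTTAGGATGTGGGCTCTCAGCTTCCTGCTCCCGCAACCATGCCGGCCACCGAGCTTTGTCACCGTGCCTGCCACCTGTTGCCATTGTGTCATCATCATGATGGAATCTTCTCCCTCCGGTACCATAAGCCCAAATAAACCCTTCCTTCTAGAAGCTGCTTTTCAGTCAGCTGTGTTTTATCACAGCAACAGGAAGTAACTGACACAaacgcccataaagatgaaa
Gm39888, ORR1E, chr2:101991680-101991979, plus strand: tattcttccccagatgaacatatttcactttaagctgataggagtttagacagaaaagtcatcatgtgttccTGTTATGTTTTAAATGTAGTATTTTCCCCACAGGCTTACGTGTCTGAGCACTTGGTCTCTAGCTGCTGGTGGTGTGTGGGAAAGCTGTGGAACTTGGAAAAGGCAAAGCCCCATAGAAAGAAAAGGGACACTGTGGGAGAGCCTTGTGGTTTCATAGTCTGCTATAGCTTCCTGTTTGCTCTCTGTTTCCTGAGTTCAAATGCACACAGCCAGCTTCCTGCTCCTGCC
Per3, ORR1F, chr4:151029788-151029919, minus strand: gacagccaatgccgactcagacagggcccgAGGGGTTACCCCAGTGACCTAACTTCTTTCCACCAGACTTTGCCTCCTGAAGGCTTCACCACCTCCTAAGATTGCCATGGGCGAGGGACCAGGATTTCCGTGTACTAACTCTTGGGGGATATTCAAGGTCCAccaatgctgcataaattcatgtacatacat
Zfand6, ORR1A1, chr7:84633885-84633969, minus strand: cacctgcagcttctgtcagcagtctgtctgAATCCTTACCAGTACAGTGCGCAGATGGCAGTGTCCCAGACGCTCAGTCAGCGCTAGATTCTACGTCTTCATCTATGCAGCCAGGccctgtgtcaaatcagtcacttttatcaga

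Library totals in the count table ranged from 3454317 to 4670830 reads, of which ORR1 loci held 3.59% to 4.06%. The library labelled WT replicate 3 stood apart from the other WT libraries. Its *Glis3* FPKM was 2.91 against 7.63 and 6.89 in WT replicates 1 and 2 and 2.66 to 3.86 in the mutants (limma log2 fold change -0.69, adjusted p = 0.268), a value that also counts the exons outside the deleted part. The summed FPKM of 10 germ cell markers was 786, 747 and 371 in WT replicates 1 to 3 and 272 to 322 in the mutants; 9 of the 10 had an unadjusted p under 0.05, but none reached the threshold after adjustment, beside 17% and 0.00715% of all genes tested. The summed FPKM of 8 Sertoli cell markers was 1006 to 1272 in WT and 1226 to 1405 in mutant testes, and that of 6 fetal Leydig cell markers was 1654 to 2724 and 2578 to 3155. In the limma test 5 of the 6 Leydig cell markers had an unadjusted p under 0.05 and all 6 were higher in the mutant. Of the 8 Sertoli cell markers 1 had such a p and 7 were higher, and no marker of either list passed the threshold. The defining markers of testis were thus present, while of 3 mesonephric genes *Pax2* and *Wnt9b* were at or near 0 in all 7 libraries and *Pax8* was at 0.559 to 1.01 FPKM, and 4 skeletal muscle genes summed to 1.11 to 23.8 FPKM. Results that rest on WT replicate 3 are given with and without it.

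Most ORR1 loci lay between genes, and most ORR1 reads lay within them. A locus was called inside when it shared at least 1 base with the genomic span of a gene in the RefSeq FPKM table. By this measure 52521 loci (28.4%) were inside and 132446 (71.6%) outside, but the inside loci held 79.7% of ORR1 reads. The read density was 8.21 reads per kb and library inside and 0.817 outside, a 10.05-fold difference, beside 12.5-fold for all LINE, SINE and LTR loci. Exons of the GENCODE annotation overlapped 4130 ORR1 loci (2.23%), and these held 21.6% of the reads. No read was counted at 108835 loci, and at 20797 loci (17030 inside and 3767 outside) the mean reached 1 read per library, the minimum for a test of single loci.

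Within gene spans the density was higher in the older subfamilies. It was 6.76 reads per kb for ORR1A, 7.32 for ORR1B, 9.63 for ORR1C, 8.88 for ORR1D, 9.56 for ORR1E, 10.96 for ORR1F and 12.1 for ORR1G, while the median length of a locus anywhere went from 318 bp for ORR1A to 181 bp for ORR1G. Only uniquely mapped reads were counted, and younger copies that resemble each other lose more reads to this step, so densities of different subfamilies are not on an equal footing. Outside spans the density was 0.800 reads per kb for ORR1A, 0.567 for ORR1B and 0.523 for ORR1C, and it was higher in each of the older ones, at 0.82898 for ORR1D, 0.849 for ORR1E, 0.876 for ORR1F and 0.958 for ORR1G. The internal loci of ORR1A stood out there with 1.55 reads per kb, and 57.6% of their outside reads came from 10 loci.

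ORR1 LTRs within genes were mostly in the opposite orientation, and those loci carried more reads. Among loci outside exons whose host genes lie on 1 strand, 14578 LTRs were on the strand of the host and 30904 on the other, so that 32.1% were in the same orientation. The density was 4.83 reads per kb for LTRs in the same and 8.17 in the opposite orientation, 1.69-fold more. This ratio was 1.61, 1.68 and 1.76 in WT replicates 1 to 3 and 1.69, 1.70, 1.76 and 1.70 in mutant replicates 1 to 4, and the groups overlapped (exact permutation test on the log2 ratio, two-sided, p = 0.400). Each of the 7 subfamilies had the higher density in the opposite orientation, from 1.41-fold for ORR1F to 1.96-fold for ORR1B. Hosts of opposite LTRs were also more highly expressed, with a median of 2.87 FPKM against 1.61, and the ratio was 1.10-fold in hosts under 1 FPKM, 1.27-fold in hosts of 1 to 10 FPKM and 1.54-fold in hosts over 10 FPKM. Internal loci showed the reverse order, with 5.86 reads per kb in the same and 3.67 in the opposite orientation, although 38.8% of them were in the same orientation. This order held for the internal loci of ORR1A, ORR1B, ORR1D and ORR1E but not for those of ORR1C and ORR1F, with 4.09 and 7.90 reads per kb in the opposite against 3.21 and 4.73 in the same orientation. The libraries do not mark the strand of a read, so RNA of the element and unspliced RNA of the host cannot be told apart at an intronic locus.

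**Figure D1:**
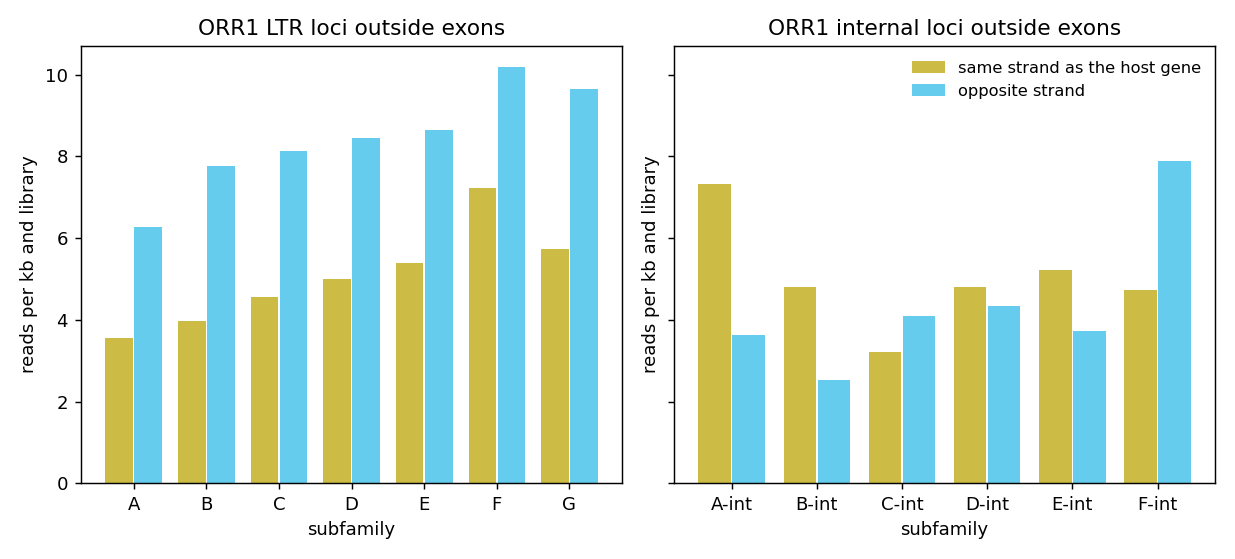
Reads per kb and library of ORR1 loci inside genes and outside exons, by subfamily (bars, mean of the 7 libraries), for loci on the strand of the host gene and on the opposite strand; left, LTR loci, right, internal loci. The opposite orientation is higher in each of the 7 LTR subfamilies, for example 8.65 against 5.39 reads per kb for ORR1E, and lower for the internal loci of ORR1A, with 3.62 against 7.32.

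The first question was whether ORR1 transcription as a whole differed between WT and mutant testes. Counts were summed over the loci of a subfamily and scaled to counts per 1000000 reads of the effective library size (CPM). Inside gene spans the ORR1 sum was 32848, 32820.4 and 32643 CPM in WT replicates 1 to 3 and 32966, 32602, 33173 and 32587 CPM in mutant replicates 1 to 4. The groups overlapped and their means were 32771 ± 111 (SD, n = 3) and 32832 ± 287 CPM (SD, n = 4), with a p of 0.743 in a two-sided exact permutation test. Outside spans the sum was 7789.55, 8209.82 and 7443 CPM in WT and 8874, 8025, 9288 and 9149 CPM in the mutants. Mutant replicate 2 lay within the WT range and the other mutant libraries above it. The outside means were 7814 ± 384 and 8834 ± 566 CPM (SD, n = 3 and n = 4; exact permutation p = 0.0857).

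None of the ORR1 subfamilies passed the threshold of 0.05 with edgeR's quasi-likelihood test and Benjamini-Hochberg adjustment over all element names. This held for 13 ORR1 sums over loci anywhere (beside 0.123% of all 816 sums), for 13 sums inside (0% of 788) and for 13 sums outside spans (4.16% of 721, 30 sums, all of them higher in the mutant). It also held for the 28 finer ORR1 names such as ORR1A0 and ORR1D2 (0.12% of 831). In simulated sums over loci anywhere, with 1 dispersion for all sums, 162 of 200 sums changed by 0.5 on the log2 scale were recovered. Smaller changes, and sums inside or outside spans, were not simulated. With DESeq2, the tool of the study's methods for loci, 2 ORR1 sums anywhere (11.3% of all sums with an adjusted p), none inside (6.36%), 3 outside spans (14.3%) and 3 finer names (12.6%) passed, all higher in the mutant. They were ORR1E and ORR1G anywhere, ORR1C, ORR1E and ORR1F outside, and ORR1B2, ORR1E and ORR1G among the names. An unadjusted p under 0.05 with a higher level in the mutant was found for 3 of the 13 sums anywhere (16.2% of all names) and for 4 of the 28 finer names (15.9%).

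Outside spans the 13 sums all had positive fold changes, as did 623 of the 721 sums over all names. ORR1E outside spans was at 734, 819 and 739 CPM in WT replicates 1 to 3 and at 966, 831, 920.0 and 991 CPM in mutant replicates 1 to 4. Every mutant library lay above every WT library, mutant replicate 2 by the smallest margin. The log2 fold change was 0.28 (95% interval 0.05 to 0.51, edgeR adjusted p = 0.0880), and it was 0.24 without WT replicate 3 (adjusted p = 0.210). ORR1C outside spans was at 449, 475 and 442 CPM in WT and 550.1, 494, 552 and 590.5 CPM in the mutants, again without overlap, with a log2 fold change of 0.26 (interval 0.05 to 0.48, adjusted p = 0.0894). ORR1F was at 684, 761 and 665 CPM and at 844, 764, 838 and 902 CPM, with mutant replicate 2 next to WT replicate 2, and its log2 fold change was 0.25 (adjusted p = 0.104). ORR1G, the oldest and smallest subfamily, was at 141, 155 and 146 CPM and at 167, 163, 174 and 187 CPM (log2 fold change 0.23, adjusted p = 0.152). ORR1A, ORR1B and ORR1D overlapped between the groups, with log2 fold changes of 0.18, 0.17 and 0.16. The median over the 13 ORR1 sums was 0.17, beside 0.21 for all names, 0.21 for MT and 0.26 for MLT1, and 4 of the 13 had an unadjusted p under 0.05 and a higher level in the mutant, beside 25.9% of all names.

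Inside spans the fold changes were close to 0. Over the 13 sums the median log2 fold change was -0.02, beside 0.03 for all names, and 1 of the 13 had an unadjusted p under 0.05 and a higher level in the mutant, beside 8.5% of all names. ORR1A had -0.02 (95% interval -0.10 to 0.07), and ORR1G the most positive value with 0.09 (interval 0.00 to 0.18, adjusted p = 0.424). ORR1E inside spans was at 4348, 4407 and 4446 CPM in WT and 4604, 4532, 4554 and 4549 CPM in the mutants. These groups did not overlap (exact permutation p = 0.0286, the smallest that 35 splits allow, not adjusted over the sums), and edgeR gave a log2 fold change of 0.05 with an adjusted p of 0.556. The internal loci of ORR1B had the most negative value, -0.10 (adjusted p = 0.551), with 589, 518 and 523 CPM in WT and 511, 510.1, 510.2 and 495.0 CPM in the mutants.

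**Figure D2:**
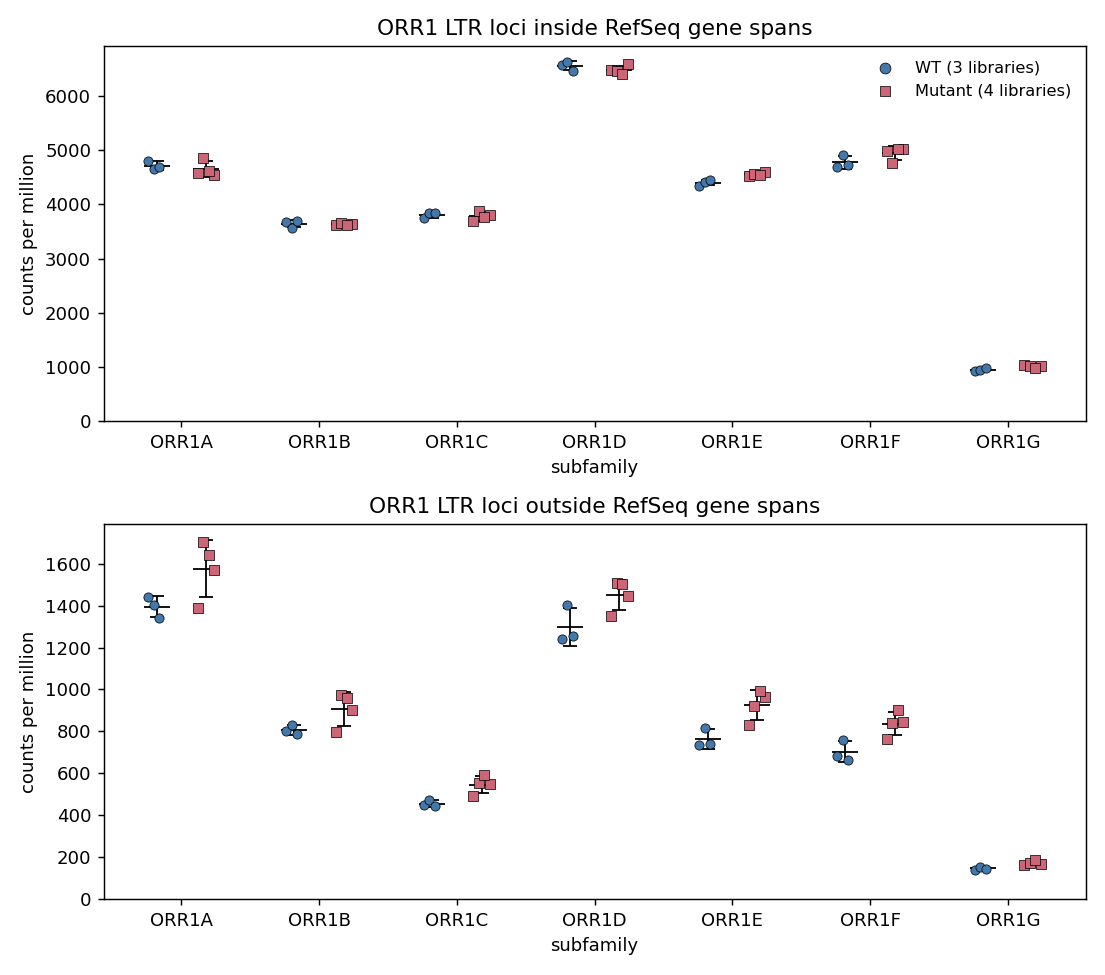
Summed counts of the ORR1 LTR subfamilies in CPM, above for loci inside RefSeq gene spans and below for loci outside them; points are libraries (3 WT, 4 mutant), lines the mean and bars the SD. Inside spans the groups overlap except for ORR1E, whose mutant points lie slightly above the WT points. Outside spans the mutant points of ORR1C, ORR1E, ORR1F and ORR1G lie above the WT points.

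**Figure D3:**
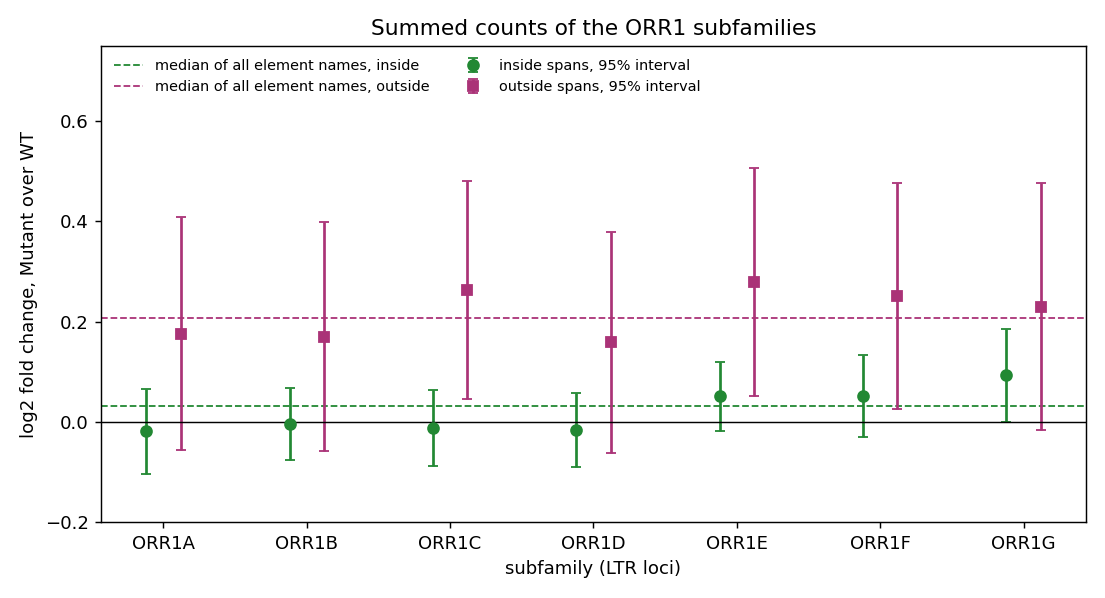
Log2 fold change of mutant over WT (edgeR) for the summed counts of each ORR1 LTR subfamily, inside and outside gene spans. Bars are 95% intervals on the residual degrees of freedom, which need not match the p of the edgeR test. Dashed lines mark the median of all element names. Outside values lie between 0.16 and 0.28 around the median of all names, 0.21, and inside values between -0.02 and 0.09.

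The difference outside spans lay in loci with very few reads each. The 128679 outside loci with a mean under 1 read per library summed to 1944, 2108 and 2083 CPM in WT and to 3021, 2348, 2961 and 3476 CPM in the mutants. All mutant libraries lay above all WT libraries, mutant replicate 2 nearest to them. The ratio of the means was 1.44 (exact permutation p = 0.0571), and without WT replicate 3 it was 1.46 (p = 0.0667, the smallest that design allows). The 3767 outside loci with at least 1 read summed to 5846, 6101 and 5359.64 CPM in WT and 5852.5, 5677, 6328 and 5673 CPM in the mutants, a ratio of 1.02 with overlapping groups. Among the sparse loci the ratio was 1.52 for the 107614 loci over 10 kb from a span and 1.25 for the 21065 nearer ones. By subfamily it went from 1.33 for ORR1G to 1.499 for ORR1E, and it overlapped between the groups only for ORR1G.

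This pattern was not particular to ORR1. The sparse outside loci of all families together summed to 32173, 34985 and 34943 CPM in WT and to 50431, 38899, 52023 and 58278 CPM in the mutants, a ratio of 1.47, and the ratios of MT and MLT1 were 1.45 and 1.43. ORR1 loci held 6.04%, 6.03% and 5.96% of these sparse outside reads in WT and 5.99%, 6.04%, 5.69% and 5.97% in the mutants. The mutant libraries thus had more reads in sparse outside loci of ORR1, of MT and MLT1 and of all loci pooled; other single families were not examined in this way. The summed germ cell markers were at 371 FPKM or more in WT and 322 FPKM or less in mutant libraries. The Leydig cell markers summed to 1654 to 2724 FPKM in WT and 2578 to 3155 FPKM in mutant libraries. The part of either cell type in the result was not tested.

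**Figure D4:**
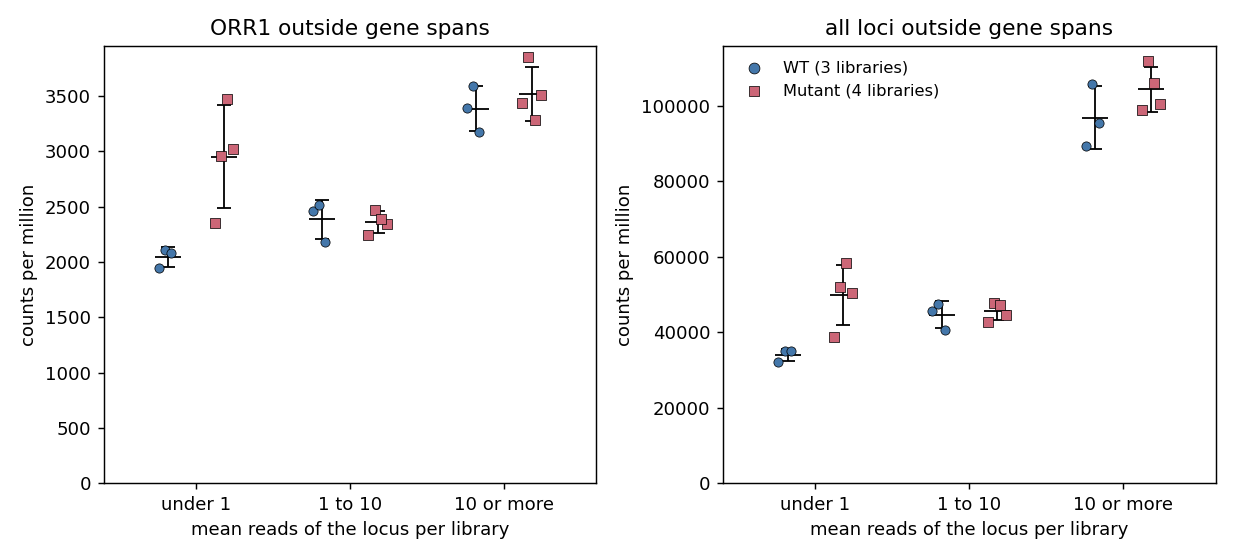
CPM outside gene spans, summed over loci with a mean under 1, of 1 to 10 and of 10 or more reads per library, for ORR1 loci (left) and all loci (right); points are libraries, lines the mean and bars the SD. In both panels the groups separate in the sparse loci alone, at 1944 to 2108 against 2348 to 3476 CPM for ORR1.

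Ratios within a library, which need no scaling between libraries, were compared for 7 pairs of sums with two-sided exact permutation tests. No ratio had an adjusted p below 0.200. This is the least that 1 ratio alone could reach, since its smallest exact p of 0.0286 is adjusted over 7 ratios. The log2 ratio of ORR1 reads outside over inside spans was -2.076, -1.999 and -2.133 in WT and -1.89, -2.02, -1.84 and -1.83 in the mutants. Mutant replicate 2 lay within the WT range, and the difference was 0.17 (exact p = 0.0857, adjusted p = 0.200). The log2 ratio of ORR1 over MLT1 reads inside spans was 0.96, 0.88 and 0.92 in WT and 0.86, 0.85, 0.87 and 0.86 in the mutants. Here every mutant library lay below every WT library, by 0.06 on average (exact p = 0.0286, adjusted p = 0.200), and the difference was again -0.06 without WT replicate 3. The difference in ORR1 over MT was -0.02 inside and -0.02 outside spans, and that of subfamilies A and B over C to G was -0.04 and -0.07, with groups that overlapped in each case.

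The second question was whether single ORR1 loci differed. Of the 20797 loci tested, 10 passed an adjusted p of 0.1 with edgeR, at the read minimum and threshold of the study's methods, which is 0.0481% beside 0.0846% of all 464695 loci. Of these 10 loci 8 were lower in the mutant (0.0628% of all loci) and 2 higher (0.0217%). An unadjusted p under 0.05 was found for 4.85% of ORR1 loci and 4.79% of all loci, and groups without overlap for 2.81% upward and 3.14% downward, beside 2.97% and 3.03% of all loci. These shares of ORR1 loci were thus close to the shares of all loci. The groups overlapped at 9 of the 10 loci. DESeq2, the test that the study's methods name for these loci, called no ORR1 locus and 23 loci in all, while 383 ORR1 loci had an unadjusted p under 0.05. At part of the 10 loci it gave no adjusted p, so its result there is not a negative test. In simulated counts edgeR recovered 132 of 200 loci changed by 1.5 on the log2 scale, with 6 false calls. The 200 were drawn from loci with a mean of at least 10 reads, which 2785 of the 20797 ORR1 loci reached. All simulated loci shared 1 dispersion. The recovery thus does not describe sparser loci, and neither count covers loci where 1 library stands out.

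Several of the loci that fell had low counts in WT replicate 3 as well. The first was an ORR1E LTR in a UTR exon of *Tfcp2l1*, a transcription factor of pluripotent cells, at chr1:118678046-118678399. It had 115, 156 and 29 reads in WT replicates 1 to 3 and 39, 34, 31 and 28 in mutant replicates 1 to 4. WT replicates 1 and 2 were high, and WT replicate 3, at 7.24 CPM, lay just below the mutants at 8.07 to 11.1 CPM. The log2 fold change was -1.38 (standard error 0.21, edgeR adjusted p = 2.59e-07), -1.83 without WT replicate 3 and -0.77 without WT replicate 2 (adjusted p = 0.828). *Tfcp2l1* itself had 3.81, 5.71 and 1.12 FPKM in WT and 1.78, 1.41, 1.39 and 1.13 FPKM in the mutants, again with WT replicate 3 just below the mutants (limma adjusted p = 0.304).

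An internal ORR1B1 locus at chr13:66665309-66667352, over 224 kb from the nearest span and in no annotated gene, had 42, 21 and 4 reads in WT and 5, 2, 1 and 5 in the mutants. Its counts in WT replicate 3 were again within the mutant range, and the log2 fold change was -2.46 (adjusted p = 3.13e-05; 0.564 without WT replicate 1). An internal ORR1A0 locus at chr13:58794363-58796166, in an intron of the lincRNA *Gm40968*, had 32, 52 and 3 reads in WT and 24, 2, 6 and 1 in the mutants, so that mutant replicate 1 lay near WT replicate 1 (log2 fold change -1.58, adjusted p = 0.00356). Without WT replicate 2 this value was -0.73 (adjusted p = 0.976), without WT replicate 3 -2.13, without mutant replicate 1 -2.96, and without mutant replicate 2 or 4 the adjusted p was 0.198 and 0.282. An internal ORR1D locus at chr7:43184057-43185015, in an intron of the zinc finger gene *Zfp936*, had 31, 22 and 10 reads in WT and 8, 4, 11 and 1 in the mutants (log2 fold change -1.52, adjusted p = 0.0715), a call that was lost without any 1 library other than WT replicate 3 and mutant replicate 3 (adjusted p = 0.128 to 0.948). Its host was also higher in WT replicates 1 and 2 than in the other 5 libraries, with 6.91, 7.90 and 3.27 FPKM in WT and 3.28, 2.31, 3.22 and 2.55 FPKM in the mutants. An ORR1F LTR at chrX:135168642-135168902, in a UTR exon of *Gm15023*, had 24, 18 and 0 reads in WT and 6, 1, 3 and 1 in the mutants (log2 fold change -2.04, adjusted p = 0.0554), a call lost without WT replicate 1 or 2 or mutant replicate 2 or 4 (adjusted p = 0.393 to 0.959). The RefSeq table lists the gene around it, AV320801, at a pair of places on chromosome X, so reads may be split between copies and the value is uncertain. At these 4 loci, as at *Tfcp2l1*, WT replicates 1 and 2 lay above WT replicate 3, as they did in the germ cell markers, whose part in the result was not tested.

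A pair of adjacent loci in an intron of the flippase gene *Atp9a* rested on 1 library. The internal ORR1A2 locus at chr2:168722684-168724694 had 71 reads in WT replicate 1, 1 and 2 in the other WT libraries and 1, 3, 4 and 4 in the mutants. The ORR1A2 LTR that abuts it, chr2:168724695-168725010, had 21 reads in WT replicate 1 and 0 in the other 6 libraries. Only WT replicate 1 was high at either locus, and without it the log2 fold change of the internal locus went from -2.64 to 1.09 (adjusted p = 0.987). *Atp9a* had 37.0 FPKM in WT replicate 1 and 21.4 to 23.7 FPKM in the other 6 libraries.

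The groups did not overlap at 1 locus, the ORR1F LTR in *Per3*, a clock gene, whose sequence is printed above. It lies at chr4:151029788-151029919, where 1 transcript of the gene keeps an intron, opposite to the strand of the gene. GENCODE also places *Camta1* there, on the same strand as *Per3*, so the reads cannot be assigned to 1 gene. The reads were 7, 2 and 6 in WT and 0 in all 4 mutant libraries (edgeR adjusted p = 0.0776; 0.134 to 0.597 when any 1 library was left out, 0.277 without WT replicate 3). With so few reads the fitted fold change is no bound and is not given. *Per3* as a whole was at 2.47, 2.15 and 2.09 FPKM in WT and 1.71, 1.98, 1.86 and 1.62 FPKM in the mutants, also without overlap, but with an adjusted p of 0.276 (limma log2 fold change -0.26).

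Both loci that rose lay at the 3′ end of *Zfp386*, a zinc finger gene, and rose in only some mutant libraries. The ORR1E LTR in its UTR exon, chr12:116062517-116062710, had 52, 30 and 37 reads in WT and 79, 137, 45 and 29 in the mutants. Mutant replicates 1 and 2 were high, while mutant replicate 4 had fewer CPM, 8.36, than any WT library (log2 fold change 1.14, adjusted p = 0.000429; 0.60 without mutant replicate 2, adjusted p = 0.871, and 0.231 as adjusted p without WT replicate 2). An ORR1D1 LTR 2382 bp beyond the span, chr12:116065589-116065930, had 22, 10 and 14 reads in WT and 42, 51, 15 and 12 in the mutants, with the same pair of mutant libraries high (log2 fold change 1.23, adjusted p = 0.0338). This call was lost without mutant replicate 1 or 2 or WT replicate 2 or 3 (adjusted p = 0.179 to 0.871), with a log2 fold change of 0.82 without mutant replicate 2. *Zfp386* was at 9.85 to 10.7 FPKM in WT and at 10.8, 13.6, 8.78 and 9.25 FPKM in the mutants.

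**Figure D5:**
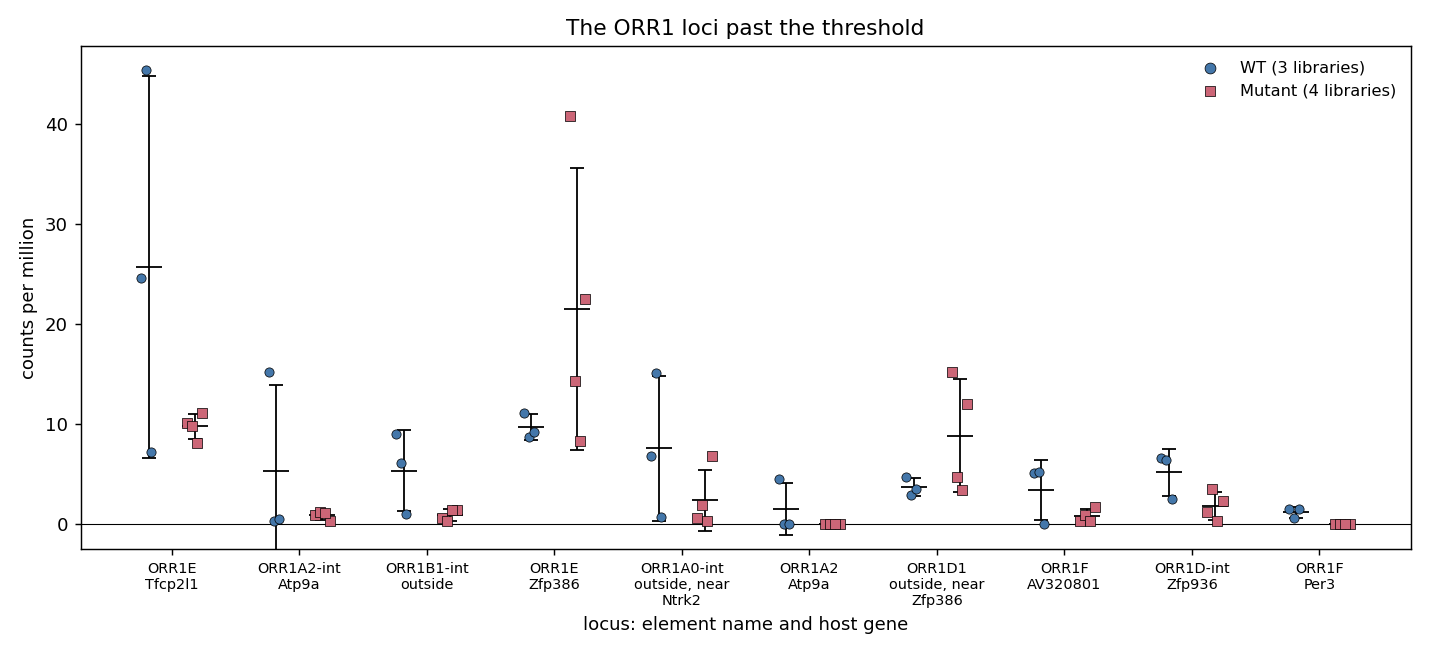
CPM of the 10 ORR1 loci past the threshold, with the element name and host gene of each; points are libraries (3 WT, 4 mutant), lines the mean and bars the SD. The groups overlap at 9 of the 10 loci, and the bars of several WT means rest on 1 or 2 high libraries, such as 15.2 CPM in WT replicate 1 against 0.291 and 0.499 CPM in the other WT libraries at the internal *Atp9a* locus.

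Without WT replicate 3, 22 ORR1 loci passed (20 of them lower in the mutant), of which 14 had not passed with all libraries, beside 0.141% of all loci. At 18 of the 22 the read count of WT replicate 3 was below both of the other WT libraries. The selection itself favours such loci, because it compared WT replicates 1 and 2 alone with the mutants. The count is therefore no measure of WT replicate 3. The 14 included an ORR1E LTR in an intron of *Piwil4*, which encodes a nuclear PIWI protein of fetal male germ cells, with 2, 13 and 1 reads in WT and 1, 0, 0 and 0 in the mutants (edgeR adjusted p = 0.0349 without WT replicate 3). They also included an ORR1C2 LTR in an intron of *Tdrd1*, a partner of PIWI proteins, with 5, 14 and 3 reads in WT and 0, 0, 3 and 1 in the mutants (adjusted p = 0.0884). Most of these counts came from WT replicate 2, and *Piwil4* itself was at 2.62, 11.2 and 0.268 FPKM in WT and at 0.277 to 1.64 FPKM in the mutants.

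Among the 2785 ORR1 loci with a mean of at least 10 reads, 94 had groups without overlap and an unadjusted p under 0.05 (3.38%, beside 3.41% of all loci of that depth), 54 higher and 40 lower in the mutant. None of them passed the threshold, and the following were taken as those with the largest fold changes. The largest falls were at intronic LTRs of *Fbxw7*, a ubiquitin ligase subunit, *Slc12a2*, an ion cotransporter, *Gata6*, *Dusp19* and at the first exon of *1700121N20Rik*, with log2 fold changes of -1.09 to -0.98. The *Fbxw7* ORR1D1 LTR had 30, 21 and 24 reads in WT and 10, 13, 5 and 11 in the mutants, and the *Slc12a2* ORR1C2 LTR 23, 20 and 22 against 8, 9, 9 and 8. At both loci WT replicate 3 was level with the other WT libraries. GENCODE also lists *Gm37240* at the *Fbxw7* locus and *Nup35* at the *Dusp19* locus. The largest rises were at LTRs in *Prkar2b*, a regulatory subunit of protein kinase A, *Esr2*, an estrogen receptor, *Pola1*, *Spata21* and *Tmem177*, with log2 fold changes of 1.01 to 1.42. The *Prkar2b* ORR1C2 LTR had 4, 7 and 7 reads in WT and 15, 12, 7 and 21 in the mutants (at most 2.03 against at least 2.22 CPM), and its host 114, 151 and 123 FPKM against 164, 181, 176 and 177 FPKM. The *Esr2* ORR1B1 LTR, in a UTR exon, had 5, 6 and 9 reads against 16, 16, 8 and 10, and its host 1.38 to 1.72 against 2.08 to 2.43 FPKM. *Prkar2b*, *Esr2*, *Spata21* and *Slc12a2* lay without overlap in the same direction as their LTRs, with log2 fold changes of 0.44, 0.38, 0.51 and -0.41, and none passed the threshold (limma adjusted p = 0.168, 0.186, 0.244 and 0.183). The other hosts overlapped between the groups: *Fbxw7* had -0.14, *Dusp19* -0.09, *Pola1* 0.01, *Tmem177* -0.06 and *Gata6* 0.17, the last 2 opposite in sign to their LTRs, and *1700121N20Rik* was below the FPKM minimum.

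The fold changes of loci and their hosts were more closely correlated in exons than outside them. Across loci with a mean of at least 10 reads, the log2 fold changes of locus and host had a Pearson r of 0.48 (Spearman 0.43) for 381 loci in annotated exons, with 346 hosts. Any GENCODE exon was taken here, so it could belong to a gene other than the host. For 2001 loci outside exons in 1317 hosts r was 0.22 (Spearman 0.19). Reads at a locus in an exon of its host can also count toward the FPKM of that host. Part of the correlation in exons may thus be a value set against itself. Loci of 1 host share its RNA and all points share the 7 libraries, so these values describe the set and carry no p-value.

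The ORR1 loci with the most reads were parts of ordinary gene transcripts and a small group of internal loci. The highest inside spans was the ORR1A1 locus in a coding exon of *Zfand6*, which encodes a zinc finger protein, the second of the transcript sequences above. It had 1186, 1183 and 1152 reads in WT and 1097, 1031, 1189 and 1181 in the mutants, and its 377 CPM in mutant replicate 3 and 254 CPM in WT replicate 1 were the extremes (log2 fold change 0.18, standard error 0.14, edgeR adjusted p = 0.977). An ORR1C1 locus in a coding exon of *Magoh*, a subunit of the exon junction complex, followed with 720 to 919 reads, and then LTRs in UTR exons of *Chordc1*, *Gstm7* and *Arl14ep* with 502 to 963 reads. Outside spans the first 3 were internal ORR1A4 loci on chromosome 13, at chr13:74605221-74606364 in an exon of the lincRNA *Gm46430*, at chr13:74552151-74553291 in no annotated gene and at chr13:74445711-74446854 in an intron of the lincRNA *E430024I08Rik*. The *Gm46430* locus had 978, 813 and 794 reads in WT and 759, 682, 745 and 669 in the mutants (log2 fold change -0.02), and all 3 overlapped between the groups. Their lengths were 1144, 1141 and 1144 bp; the sequences of the 3 loci were not compared. An internal ORR1A0 locus at chr2:178036696-178038485 and an internal ORR1A3 locus in a UTR exon of *Cr1l* completed the 5. No log2 fold change among these 10 loci exceeded 0.18 in size.

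A start of a RefSeq gene fell into an ORR1 locus 340 times, at 329 loci and for 325 genes. By letter these starts numbered 118 in ORR1A, 50 in ORR1B, 31 in ORR1C, 57 in ORR1D, 50 in ORR1E, 31 in ORR1F and 3 in ORR1G, and 249 (73.2%) were on the strand of the element, unlike the intronic LTRs with 32.1%. Of the 329 loci 194 had reads and 54 could be tested; none passed the threshold (0.0846% of all loci), 7 had an unadjusted p under 0.05 (4.79% of all loci), and 20 had a positive and 34 a negative fold change. The *Gm40422* LTR had 21, 12 and 15 reads in WT and 12, 10, 13 and 15 in the mutants, with overlapping groups (log2 fold change -0.09). The *Gm51695* LTR had 9, 1 and 0 reads against 4, 3, 2 and 3. The *Gm39888* LTR had 17, 16 and 11 reads against 4, 7, 11 and 12, so that mutant replicates 1 and 2 were low and the others were not (log2 fold change -0.52, edgeR adjusted p = 0.977). The *1700121N20Rik* LTR had 32, 10 and 14 reads against 8, 7, 9 and 5, the groups did not overlap in CPM, and the log2 fold change was -1.06 (adjusted p = 0.718).

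The start windows were searched on the strand of the gene for TATAAA, the letters of a TATA box, for AATAAA, the letters of the polyadenylation signal, and for TTTATA, the reverse complement of the first. TATAAA and AATAAA can overlap by a few letters and were counted separately. TATAAA was in 8.32% of all 32851 windows, in 6.43% of the 249 windows whose start lies in an ORR1 locus on the same strand and in 19.8% of the 91 on the opposite strand. TTTATA was in 6.95%, 13.7% and 2.198% of them, and AATAAA in 11.3%, 10.8% and 7.69%. The letters TATAAA, read on the strand of the ORR1 element, were thus rarer than their complement in both sets. Of the printed windows that of *1700121N20Rik* holds AATAAA, from base 208 and within the LTR. The GC content was 47.3% in both sets against 53.8% over all windows, and the median number of CG dinucleotides was 2 against 7.

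Genes that keep such elements silent were read from the FPKM table, from a list of 25 heterochromatin and DNA methylation factors and a list of 11 piRNA factors. None of the 25 passed the threshold (limma, adjusted p of 0.05; 1 of 13988 genes did, 0.00715%), 9 had an unadjusted p under 0.05 beside 17% of all genes, and 23 of the 25 fold changes were negative with a median of -0.09, beside 0.01 for all genes. *Mphosph8*, a subunit of the HUSH complex that silences retrotransposons, was at 38.6, 39.6 and 24.7 FPKM in WT and 25.3, 24.0, 24.6 and 22.3 FPKM in the mutants. WT replicate 3 lay among the mutants, and the log2 fold change was -0.47 (adjusted p = 0.205) and -0.69 without it (adjusted p = 0.00643). *Hells*, a chromatin remodeler needed for DNA methylation of repeats, was at 112, 87.6 and 102 FPKM against 68.3, 75.3, 83.3 and 76.7 FPKM, without overlap (log2 fold change -0.40, adjusted p = 0.169). *Setdb1*, the histone methyltransferase recruited to LTR elements through *Trim28*, was at 48.97, 43.0 and 41.0 FPKM against 38.3, 38.4, 36.5 and 36.9 FPKM (log2 fold change -0.23, adjusted p = 0.194), also without overlap. *Uhrf1*, which brings the maintenance methyltransferase to DNA, had the most positive value, 0.22 (adjusted p = 0.244).

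Of the piRNA factors 10 were tested, none passed, 7 had an unadjusted p under 0.05, and all 10 had negative fold changes with a median of -1.30. *Mael* was at 67.1, 128 and 18.8 FPKM in WT and 30.6, 18.2, 15.7 and 12.9 FPKM in the mutants, so that mutant replicate 1 lay above WT replicate 3 (log2 fold change -1.55, limma adjusted p = 0.241). *Ddx4*, *Mael* and *Tdrd1* are in the germ cell list as well. Without WT replicate 3, 8 of these 10 and 2 of the 25 other factors, *Mphosph8* and *Kdm1a*, fell past the threshold, beside 5.15% of all genes. The germ cell markers went the same way in the same libraries, and their part in the result was not tested.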

How the data were processed

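RNA-Seq libraries from 7 embryos at E14.5 (n = 3 WT and n = 4 mutant, 1 pair of testes each) were grouped by the sample titles. Total RNA was depleted of ribosomal RNA, random-primed without poly-A selection and made into libraries that do not mark strand. Low-quality reads were removed by the authors, who mapped the rest to mm10 (TopHat2 2.0.12) and counted uniquely mapped reads with HTSeq over RepeatMasker LINE, SINE and LTR loci; the deposited counts are raw reads per locus, with totals of 3454317 to 4670830 per library. The authors also made the deposited FPKM values per RefSeq gene with Cuffquant and Cuffnorm. Unique mapping undercounts young copies that resemble each other. All columns of both tables were used, and no pair of libraries held identical values.

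Loci were tested with edgeR 4.0.16 in R 4.3.3 (quasi-likelihood, TMM, two-sided, mean of at least 1 read per library, Benjamini-Hochberg over all loci, threshold 0.1). The read minimum and threshold are those of the study's methods, whose test was DESeq2, run here as an alternative. CPM are counts per 1000000 reads of the effective (TMM) library size. Sums over element names, with ORR1 names merged by letter, were tested in the same way at a mean of at least 10 reads and a threshold of 0.05. Genes were tested with limma 3.58.1 on log2(FPKM + 0.5), with a mean of at least 0.5 FPKM and a threshold of 0.05; fold changes on this scale understate those of low genes. For single values, exact permutation tests (two-sided) used all 35 assignments of libraries to groups of 3 and 4 (smallest p 0.0286; 0.0667 without 1 WT and 0.1 without 1 mutant library). Loci were placed with bedtools 2.31.1, against the spans of the FPKM table and GENCODE M21, and windows at gene starts came from RefSeq; other steps were run in Python 3.11.15. Scripts were tested on simulated data, in which 190 of 200 genes changed by 1.5 on the log2 scale were recovered, with 8 false calls. The noise was drawn for each gene and library alone. The recovery thus does not cover genes that go together in 1 library, such as the germ cell markers in WT replicate 3.

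Loci were named if they passed the threshold; if they were among the 5 largest rises or falls with groups that do not overlap, an unadjusted p under 0.05 and a mean of at least 10 reads; or if they were among the 5 with the most reads inside or outside spans. The *Piwil4* and *Tdrd1* loci and the genes at printed start windows are outside this rule and were chosen after their values were seen. Members, lists and tests were chosen with earlier results of these data known. Alternatives were DESeq2 1.42.0, other scalings, filters and thresholds, stricter spans, sums without exon loci, without the 10 loci with the most reads or without sparse loci, other pseudocounts, a replicate block and leaving out each library.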

Additional observations from a re-analysis of the deposited data

Results flagged for a closer look

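Of 65 groups of 4 mutant libraries checked, 2 had a library whose distance to its nearest neighbour took more of the group's range than Dixon's critical value for 4 samples allows, and chance flags about 1 in 20. The ORR1F sum inside gene spans was 4771 CPM in mutant replicate 3 and 5026, 4982 and 5021 CPM in mutant replicates 1, 2 and 4 (ratio 0.830). The sum of the internal ORR1B loci inside spans was 495.0 CPM in mutant replicate 4 and 511, 510.1 and 510.2 CPM in the others (ratio 0.930).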

How the results depend on the processing

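Of 934 recomputed values, 855 kept their side of the threshold and, apart from 11 sums whose sign changed while the value was below its standard error, their direction (for counts, stayed within 1.5 times). The 10 loci past the threshold became 0 with DESeq2 and with a mean of at least 10 reads (188 ORR1 loci had an unadjusted p under 0.05 there), 5 with the replicate block, and 4 to 22 when 1 library was left out, 4 without WT replicate 2 and 22 without WT replicate 3. DESeq2 gave no adjusted p at part of the 10. Of the sums, 2 anywhere, 3 outside spans and 3 finer names passed with DESeq2, and 3 outside spans with stricter spans, beside 18% of all outside sums (ORR1C and ORR1E with log2 fold changes of 0.40 and 0.41, and the internal loci of ORR1C with 0.41). Leaving out 1 library gave 0 to 3 outside spans, 3 without mutant replicate 2, beside 11.6% of all outside sums. With only loci of at least 1 read, outside log2 fold changes turned to -0.0191 for ORR1B, -0.0210 for the internal loci of ORR1C, -0.0620 for those of ORR1D, -0.0287 for those of ORR1E and -0.0975 for those of ORR1F. The ratio of ORR1 over MT, inside, reached an exact p of 0.0286 with such loci (difference -0.0232), and that of ORR1 over MLT1, inside, had p = 0.143 without exon loci (difference -0.0394). The internal *Atp9a* locus had log2 fold changes of -3.19 to 1.09 over the leave-outs, 1.09 without WT replicate 1. The number of silencing genes past the threshold was 0 to 10 over the leave-outs, 10 without WT replicate 3. The causes of these changes were not tested.

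Replicate numbers showed no pairing of the libraries by 1 measure: same-numbered libraries had correlations of 0.03, -0.08 and 0.02 of their deviations from the group means over 60909 loci. Differently numbered libraries had -0.095 to 0.115. These values cannot exclude that libraries were processed together, which was not tested. With the replicate block, 5 loci and 0 sums passed, and the difference in the outside over inside ratio was 0.15. At the depth of these libraries most ORR1 loci held too few reads for a test of their own.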
